A study of Mus musculus with 6 samples.

Results

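Prostaglandin synthases and receptors were followed in sorted skin fibroblasts of mice carrying the K14-PTHrP transgene (KrP) and of wild-type (WT) littermates. The list held 10 genes chosen by name: the cyclooxygenases Ptgs1 and Ptgs2, the terminal synthases Ptgis, Ptges and Ptgds, and the receptors Ptger2, Ptger3, Ptger4, Ptgfr and Ptgir. Of these, 9 had a probe set assigned to that gene alone, 1 probe set each, among 22180 genes so measured. Ptgs1 had none and was not analysed here. Values are log2 expression values, so a difference of 1 is a doubling.

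Both groups were female mice on a C57BL/6 background, aged 8 to 12 weeks, with 3 arrays each. The KrP transgene makes basal keratinocytes, through the keratin 14 promoter, express PTHrP (parathyroid hormone-related protein). The sorted fibroblasts are thus neighbours of the cells meant to express it, and came from ventral skin that in KrP mice is described as nipple-like. The WT skin is labelled as telogen, the resting phase of the hair cycle, and no hair phase is labelled for KrP skin. Cells were pooled before the sort, which kept viable CD140-positive cells that lacked CD31, CD45, CD117 and CD49f, and the labels do not say how many mice stand behind each array. The descriptions of KrP 2 and KrP 3 name another keratin than K14, while their genotypes name K14, which was used.

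Prostaglandins are short-range lipid signals. A cyclooxygenase turns arachidonic acid, released from membranes by phospholipases, into a shared intermediate, from which Ptgis makes prostacyclin, Ptges prostaglandin E2 and Ptgds prostaglandin D2. Prostacyclin acts on Ptgir, prostaglandin E2 on Ptger2, Ptger3 and Ptger4, and prostaglandin F2-alpha on Ptgfr. In skin these signals are known for their part in vessel tone, inflammation and hair growth.

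The sorted cells carried the genes of the positive gate at high levels and held 2 of the 4 genes of the negative gate near background. Pdgfra (CD140a) averaged 13.47 ± 0.06 in KrP samples and 13.23 ± 0.10 in WT samples (SD, n = 3 each). Ptprc (CD45) averaged 4.65 and 4.85, and Kit (CD117) 6.18 and 6.23, in KrP and WT samples, below 6.28, a level that 95% of 1105 olfactory receptor genes did not exceed and that served as a guide to background. Pecam1 (CD31) at 6.68 and 6.73 and Itga6 (CD49f) at 7.55 and 7.41 lay above it. Itga6 differed among arrays, with 6.49, 8.16 and 8.01 in KrP 1, 2 and 3 and 7.16, 7.91 and 7.16 in WT 1, 2 and 3. The KrP 2 array correlated by 0.986 with KrP 1, by 0.992 with KrP 3 and by 0.989 with each WT array over all probe sets, so it stood as close to WT 1, WT 2 and WT 3 as to part of its own group. The transgene itself was not analysed here, so nothing here checks the genotype labels.

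The prostacyclin arm carried the largest differences of the list, and they ran opposite ways at the enzyme and at its receptor. Ptgis was about 4-fold higher in KrP fibroblasts and was the 1 measured member that passed the test. Ptgir and the inducible cyclooxygenase Ptgs2 were lower on every KrP array than on any WT array, but missed the threshold. Both passed when same-numbered samples were treated as pairs or arrays were weighted, and Ptgir also without KrP 2. Over all 22180 genes those fits called 1851, 6410 and 1116 genes, in that order, against 483 in the main fit. The other 6 members had overlapping groups.

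Of the 9 measured members 1 was higher, 0 were lower and 8 did not pass (limma, Benjamini-Hochberg adjusted p under 0.05 over all genes). Over all genes 2.18% passed, 1.15% as higher and 1.03% as lower. The median log2 fold change, KrP minus WT, was -0.20 over the 9 members and 0.01 over all genes. At an unadjusted p under 0.05, 1 member was higher and 2 were lower, where 9.44% of all genes were higher and 6.56% lower. A fit blocked on replicate number called 3 members, Ptgis as higher and Ptgs2 and Ptgir as lower, where 8.35% of all genes passed, 5.33% as higher and 3.02% as lower.

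**Figure D1:**
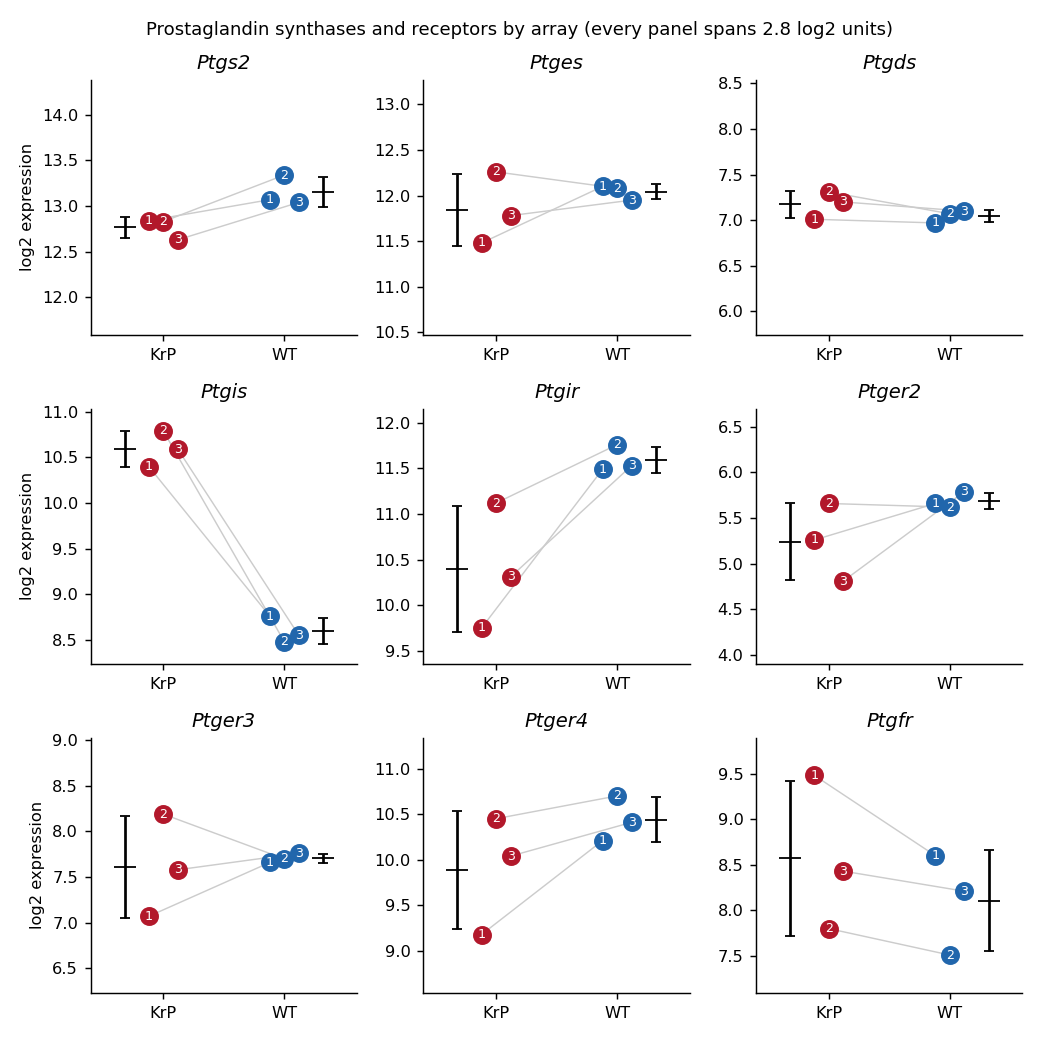
Log2 expression of the 9 measured genes on each array, KrP in red and WT in blue, with sample numbers in the points, grey lines joining same-numbered samples and bars for mean ± SD (n = 3 each). Ptgis has all KrP points at least 1.64 above the WT points, Ptgir and Ptgs2 have all KrP points below the WT points, and the groups overlap in the other 6 panels.

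Among the synthases, Ptgis converts the cyclooxygenase product into prostacyclin, a vasodilator that also holds back platelets. Its log2 values were 10.40, 10.79 and 10.59 in KrP 1, 2 and 3, against 8.76, 8.48 and 8.55 in WT 1, 2 and 3. The lowest KrP value lay 1.64 above the highest WT value. The log2 fold change was 2.00 ± 0.14 (SE), a ratio of 3.99 with a 95% interval from 3.18 to 5.01, and the adjusted p by limma was 0.00126. It stood 18th among all genes ordered by log2 fold change from the highest. All 18 alternative fits called it, with adjusted p up to 0.0268.

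Ptgs2 is the cyclooxygenase that cells switch on under stress or cytokines. Its log2 values were 12.84, 12.83 and 12.63 in KrP samples, against 13.07, 13.34 and 13.04 in WT samples. The groups did not overlap, with a gap of 0.20, and each KrP sample lay below the WT sample of the same number, by -0.23, -0.51 and -0.41. On average the difference was -0.38 ± 0.10, with a 95% interval from -0.61 to -0.15 and an adjusted p of 0.106 by limma, or 0.0248 with the replicate block.

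Ptges, the inducible synthase of prostaglandin E2, had log2 values of 11.48, 12.26 and 11.78 in KrP samples, against 12.10, 12.08 and 11.95 in WT samples. The KrP values spread on both sides of the WT values. KrP minus WT was -0.20, with a 95% interval from -0.61 to 0.21 (adjusted p = 0.647 by limma), so a fall of more than 1.53-fold or a rise of more than 1.15-fold lay outside that interval. Ptgds, which makes prostaglandin D2, had log2 values of 7.01, 7.31 and 7.20 in KrP samples and 6.97, 7.07 and 7.10 in WT samples. These groups overlapped as well, with a log2 fold change of 0.13 and a 95% interval from -0.15 to 0.40 (adjusted p = 0.680 by limma).

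Among the receptors, Ptgir binds prostacyclin and raises cyclic AMP. Its log2 values were 9.75, 11.12 and 10.31 in KrP samples, against 11.49, 11.76 and 11.53 in WT samples. All KrP arrays lay below all WT arrays, with a gap of 0.37, and the KrP values covered a range of 1.37 against 0.27 in WT samples. The log2 fold change was -1.20 ± 0.30, a 2.30-fold lower level with a 95% interval from 1.43-fold to 3.70-fold. The adjusted p by limma was 0.0933, or 0.0152 with the replicate block. Without KrP 2 the log2 fold change was -1.56 and the adjusted p by limma 0.00483, in a fit that called 1116 genes against 483 in the main fit. Arrays of the groups did not overlap as lower in 8.93% of all genes and as higher in 11.4%, against 2 and 1 of the 9 members.

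Promoter sequences are shown for Ptgs2 and Ptgir, the members whose KrP arrays all lay below the WT arrays. RefSeq promoters of build GRCm38.p6 matched 9 of the 10 listed genes, all but Ptgis and thus with Ptgs1 among them. They were searched on both strands for the cyclic AMP response element TGACGTCA and its short form TGACG, the AP-1 element TGANTCA, the Sp1 element GGGCGG, the TATA box TATAAA, the E-box CANNTG and an NF-kB form made of GGGA, any 4 bases and CC. Both sequences run 5′ to 3′ on the plus strand, from 250 bases before the first transcribed base, and capitals mark these elements other than the E-box. The Ptgs2 sequence is chr1:150099781-150100060 and the Ptgir sequence chr7:16906240-16906519.
Ptgs2: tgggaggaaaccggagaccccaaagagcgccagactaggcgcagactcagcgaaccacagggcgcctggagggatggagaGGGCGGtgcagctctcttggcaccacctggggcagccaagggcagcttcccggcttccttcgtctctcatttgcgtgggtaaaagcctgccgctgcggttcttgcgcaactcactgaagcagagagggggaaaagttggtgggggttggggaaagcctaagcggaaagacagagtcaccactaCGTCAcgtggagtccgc
Ptgir: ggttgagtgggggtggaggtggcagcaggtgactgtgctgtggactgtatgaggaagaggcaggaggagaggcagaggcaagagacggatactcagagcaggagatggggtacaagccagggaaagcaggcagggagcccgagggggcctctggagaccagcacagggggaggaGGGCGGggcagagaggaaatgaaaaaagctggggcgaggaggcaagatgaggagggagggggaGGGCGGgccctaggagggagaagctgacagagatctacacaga

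Ptgs2 was the 1 of 9 promoters with the short form TGACG, read on the other strand as CGTCA, 13 to 17 bases after the first transcribed base, where it overlaps an E-box. That short form occurs in 20.8% of 32851 promoters of this length. The Sp1 element occurs in 6 of the 9 promoters, once in Ptgs2 and at 2 places in Ptgir, and in 35.7% of all promoters. None of the 9 holds the full element TGACGTCA (1.79% of all) or the TATA box (13.6%). The AP-1 element was found in Ptgds alone of the 9 (7.81% of all), the NF-kB form in Ptger3 alone (20.7%) and the E-box in 8 of the 9 (72.3%).

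Ptger4 and Ptger2 bind prostaglandin E2 and also raise cyclic AMP. Ptger4 had log2 values of 9.18, 10.45 and 10.04 in KrP samples and 10.21, 10.70 and 10.41 in WT samples. Each KrP sample lay below the WT sample of its number, by -1.03, -0.25 and -0.37, yet the groups overlapped through KrP 2. The mean difference was -0.55, with a 95% interval from -1.23 to 0.13 (adjusted p = 0.420 by limma, or 0.0886 with the replicate block). Ptger2 had log2 values of 5.26, 5.66 and 4.81 in KrP samples and 5.66, 5.62 and 5.79 in WT samples, all under the guide to background, where differences are compressed. The difference, KrP minus WT, was -0.45 (adjusted p = 0.324 by limma).

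Ptger3, a prostaglandin E2 receptor that lowers cyclic AMP, had log2 values of 7.07, 8.19 and 7.58 in KrP samples and 7.66, 7.70 and 7.76 in WT samples. The range was 1.12 in KrP samples, against 0.10 in WT samples. The WT arrays sat together in the middle of the KrP values. KrP minus WT came to -0.09, with a 95% interval from -0.67 to 0.48 (adjusted p = 0.905 by limma), and without KrP 1 it changed sign, to 0.18.

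Ptgfr, the receptor of prostaglandin F2-alpha that raises cell calcium, had log2 values of 9.48, 7.80 and 8.43 in KrP samples and 8.60, 7.51 and 8.21 in WT samples. Numbers 1, 3 and 2 ran from high to low in both groups. The KrP value was above the WT value of the same number by 0.88, 0.29 and 0.22, while the groups overlapped widely. On average KrP exceeded WT by 0.46, with a 95% interval from -0.51 to 1.44 (adjusted p = 0.668 by limma, or 0.122 with the replicate block). Single arrays moved this value, to 0.008 without KrP 1, 0.17 without WT 2, 0.71 without WT 1 and 0.85 without KrP 2.

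**Figure D2:**
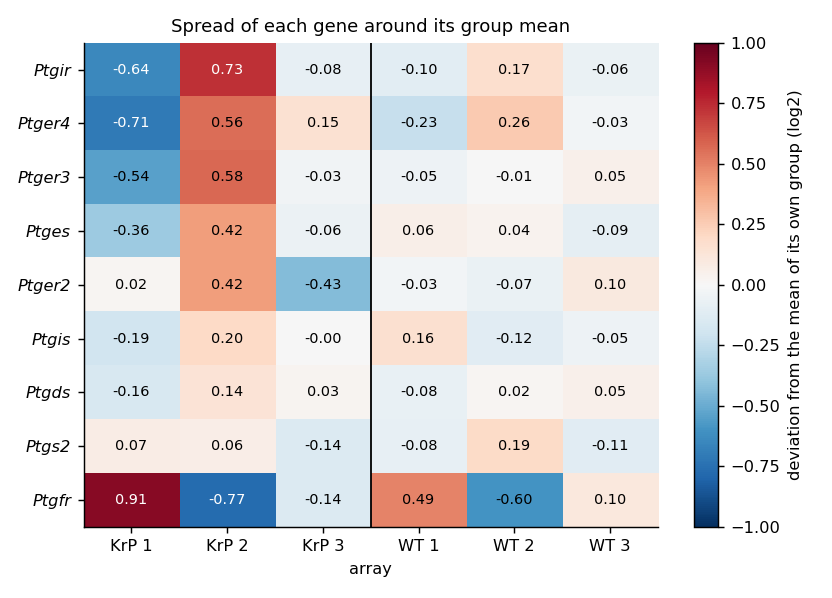
Deviation of each gene from the mean of its own group on each array (log2), with KrP arrays left of the line and WT arrays right of it. Ptgir, Ptger4, Ptger3 and Ptges are low in KrP 1 and high in KrP 2, Ptgfr runs the other way, and most WT deviations are smaller.

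Most members varied more among the KrP arrays than among the WT arrays. The SD was larger in KrP than in WT samples for 8 of the 9 members, the exception being Ptgs2, and for 51.2% of all genes. The same held for 12 of 15 other measured prostanoid genes and 16 of 20 genes that answer to NF-kB or interleukin 1. It held for 13 of 22 immediate early genes. For Ptger3 the KrP SD was 11.1 times the WT SD, and for Ptges, Ptger2 and Ptgir it was 4.83, 4.78 and 4.73 times. For 6 of the 9 members KrP 1 was the lowest and KrP 2 the highest KrP array, an order that 27.2% of all genes had. These were Ptgis, Ptges, Ptgds, Ptger3, Ptger4 and Ptgir. Ptgfr had the reverse order, as did 22.2% of all genes.

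Genes that answer to NF-kB or interleukin 1, such as cytokines, are given beside the receptors. KrP 1 was the lowest and KrP 2 the highest KrP array for 9 of the 20 measured genes of that kind, with the reverse for 2. Number 2 was the highest array in KrP and in WT samples alike for 13 of the 20, and for 21.5% of all genes. Other prostanoid genes had the order of KrP 1 lowest and KrP 2 highest in 5 of 15 cases and its reverse in 8. For immediate early genes these counts were 3 and 10 of 22. Of the 20, 19 had a negative log2 fold change and 0 passed limma, with 8 lower and 1 higher at an unadjusted p under 0.05 (all genes: 6.56% lower, 9.44% higher) and 9 lower in the blocked fit (all genes: 3.02%). Their median log2 fold change was -0.38. Immediate early genes, which rise when skin is dissociated, gave 0 of 22 calls, with 7 higher and 2 lower at an unadjusted p under 0.05. With the block 5 were higher and 1 lower (all genes: 5.33% higher, 3.02% lower), and their median log2 fold change was 0.16. Whether the state of the cells at the sort had a part in the values of Ptgs2 or Ptgir was not tested.

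Markers of other cells that use these genes were set beside the Ptgis difference, since endothelial cells, pericytes and smooth muscle are known to make prostacyclin. Of 10 endothelial markers 0 rose and 2 fell, Tek and Cldn5, and with the replicate block 3 fell, Kdr being the third. Beside all marker counts here stand the shares over all genes, 1.15% higher and 1.03% lower, or 5.33% and 3.02% with the block. Tek averaged 5.76 in KrP samples, under the guide to background, and 6.52 in WT samples. Kdr, a receptor of vascular endothelial growth factor, had log2 values of 7.76, 6.84 and 7.31 in KrP samples and 9.28, 8.19 and 8.67 in WT samples (adjusted p = 0.0658 by limma, or 0.00158 with the block). Cdh5, the cadherin of endothelial junctions, averaged 8.33 in KrP and 7.79 in WT samples (adjusted p = 0.304 by limma). The summed level of the 10 on the log2 scale ran from 10.04 to 10.27 in KrP samples and from 10.28 to 10.64 in WT samples, and 3 of the 10 were under the guide to background. Of 11 pericyte and smooth muscle markers 0 rose and 1 fell, Cspg4, while with the block 1 rose, Acta2, and 1 fell. The summed level ran from 11.79 to 13.28 in KrP samples and from 11.29 to 12.17 in WT samples. Acta2, smooth muscle actin, had log2 values of 10.69, 11.08 and 12.36 in KrP samples and 9.64, 10.17 and 10.38 in WT samples (adjusted p = 0.154 by limma, or 0.0138 with the block). Every KrP array lay above every WT array for Acta2, as for Ptgis and for 11.4% of all genes. Acta2 was the 1 marker of these 11 with that pattern. The reverse pattern was found for 2 of the 11, Cspg4 and Mcam, and for 8.93% of all genes. The part of Acta2 in the Ptgis difference was not tested. The pericyte marker Rgs5 averaged 5.30 in KrP and 5.17 in WT samples, under the guide to background in both. Of 14 leukocyte markers 1 rose, Csf1r, and 0 fell. With the block 2 rose, Csf1r and Cd14, and 1 fell, Cd3g. A negative log2 fold change was found for 12 of the 14, with a median of -0.14, and 8 of the 14 were under that guide. Fewer cells of a type and less RNA per cell cannot be told apart in such bulk samples.

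The genes most like Ptgis over the 6 arrays, by Pearson's r among 13409 genes above the guide to background, were Map6d1 (r = 0.9995), Slc25a39 (r = 0.997) and Exo5 (r = 0.995). These correlations rest mainly on the split between the groups. Map6d1 had log2 values of 6.93, 7.06 and 6.99 in KrP samples and 6.23, 6.14 and 6.18 in WT samples.

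Around these members, other prostanoid genes, of synthesis, transport, breakdown or receptors, had positive log2 fold changes in 10 of 15 cases without passing the test. Of 19 listed, 15 were measured, and 0 passed limma. At an unadjusted p under 0.05, 3 were higher and 1 lower (all genes: 9.44% higher, 6.56% lower). With the replicate block 3 passed, all higher (all genes: 5.33%), namely Akr1c18, Ptgr1 and Cbr1. The median log2 fold change was 0.14 over the 15 and 0.01 over all genes.

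Akr1c18, an aldo-keto reductase best known for inactivating progesterone, had log2 values of 11.07, 7.94 and 10.33 in KrP samples, against 7.16, 5.92 and 6.99 in WT samples. All KrP arrays lay above all WT arrays, KrP 2 the least. KrP exceeded WT by 3.09 ± 0.73, with a 95% interval from 1.42 to 4.76 (adjusted p = 0.0810 by limma, or 0.00412 with the block). Without KrP 2 it was 4.01 with an adjusted p of 0.00266. Ptgr1, which reduces inactivated prostaglandins and oxidises leukotriene B4, had log2 values of 11.44, 10.20 and 11.04 in KrP samples and 9.91, 9.50 and 9.67 in WT samples. Again the groups did not overlap, with a log2 fold change of 1.20 (adjusted p = 0.0839 by limma, or 0.00933 with the block, and 0.00435 without KrP 2).

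Hpgd, the dehydrogenase that starts prostaglandin breakdown, had log2 values of 7.51, 6.98 and 7.43 in KrP samples and 6.96, 6.60 and 7.09 in WT samples. The groups overlapped, and the log2 fold change was 0.42 (adjusted p = 0.313 by limma). For Cbr1, a carbonyl reductase that acts on prostaglandin E2, KrP exceeded WT by 0.50 on the log2 scale (adjusted p = 0.423 by limma, or 0.0318 with the block). The uptake carrier Slco2a1 differed by -0.51 (adjusted p = 0.312, or 0.0390 without KrP 2) and the export pump Abcc4 by 0.46 (adjusted p = 0.217, or 0.0421 without KrP 1). The other prostaglandin E synthases, Ptges2 and Ptges3, had log2 fold changes of 0.20 and 0.06. Hpgds, Tbxas1 and Ptgdr, a synthase of prostaglandin D2, the thromboxane synthase and a prostaglandin D2 receptor, averaged at most 5.83 in KrP and 6.00 in WT samples, under the guide to background. The thromboxane receptor Tbxa2r averaged 7.25 in both groups.

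**Figure D3:**
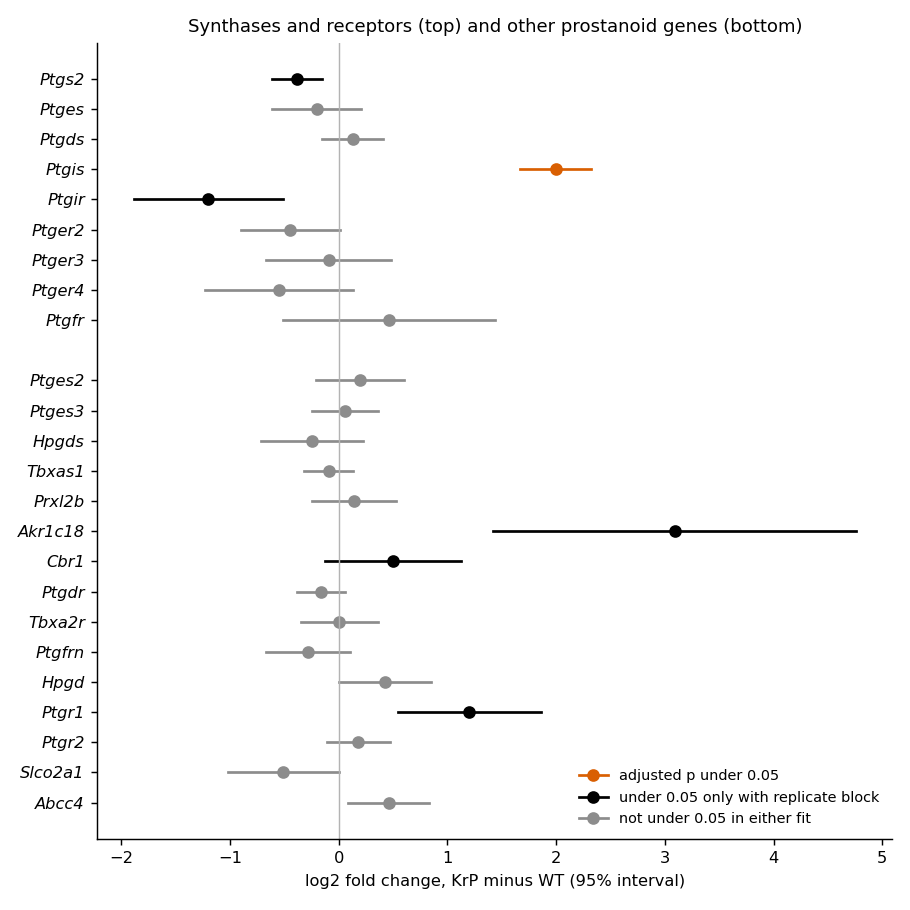
Log2 fold change, KrP minus WT, with its 95% interval for the 9 measured synthases and receptors (top) and the 15 other measured prostanoid genes (bottom). Ptgis is the one coloured for an adjusted p under 0.05, and Ptgir, Ptgs2, Akr1c18, Ptgr1 and Cbr1 are the black ones, under 0.05 with the replicate block.

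Upstream, 2 of 24 measured genes of phospholipases and arachidonate handling fell and 0 rose (4 lower and 1 higher with the block). Over all genes 1.03% fell and 1.15% rose (3.02% and 5.33% with the block). Pla2g2e, a secreted phospholipase A2, had log2 values of 8.37, 9.24 and 8.46 in KrP samples, against 10.76, 11.05 and 10.96 in WT samples. It was 4.70-fold lower, with a gap of 1.52 between the groups (adjusted p = 0.00403 by limma). Pla2g7, which breaks down platelet-activating factor and so releases no arachidonate, had log2 values of 6.03, 5.70 and 5.97 in KrP samples and 7.55, 8.27 and 7.93 in WT samples. It was lower, with a log2 fold change of -2.02 (adjusted p = 0.00299 by limma), and since the KrP values were under the guide to background this may understate the difference. Pla2g4a, the cytosolic enzyme that supplies arachidonic acid to cyclooxygenases, averaged 10.07 ± 0.17 in KrP and 9.81 ± 0.23 in WT samples (SD, n = 3 each), with overlapping groups (adjusted p = 0.458 by limma).

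Lipoxygenase and leukotriene genes, of a branch that starts from the same arachidonic acid, held 4 calls among 17 measured, 2 higher and 2 lower. Aloxe3 was the only lipoxygenase among these calls. Over all genes 1.15% were called higher and 1.03% lower. Ggt5, which converts leukotriene C4 to D4, had log2 values of 7.43, 7.68 and 7.94 in KrP samples and 6.09, 6.06 and 6.16 in WT samples. It was higher by 1.58 on the log2 scale (adjusted p = 0.00276 by limma), and since the WT values were under the guide to background this may understate the difference. Dpep1, a dipeptidase that takes leukotriene D4 further, was 1.79-fold lower, with log2 values of 11.56, 11.73 and 11.58 in KrP samples and 12.37, 12.64 and 12.39 in WT samples (adjusted p = 0.00707 by limma, or 0.0592 without KrP 3). Alox5ap, the helper protein of leukotriene synthesis, was 2.28-fold higher (adjusted p = 0.0356 by limma), and this call ended without KrP 3, WT 2 or WT 3 (up to 0.170), without KrP 2 and WT 2 together, and with quantile normalisation. For its partner Alox5 the difference was 0.10 (adjusted p = 0.723 by limma). Aloxe3, a lipoxygenase of the epidermal barrier, was 4.29-fold lower, averaging 7.13 in KrP and 9.23 in WT samples (adjusted p = 0.00383 by limma). Its log2 values were 6.78, 7.47 and 7.13 in KrP samples and 9.53, 8.99 and 9.16 in WT samples. Of 11 measured keratinocyte markers 0 passed and 9 had a negative log2 fold change. Their summed level ran from 10.22 to 10.54 in KrP and from 10.43 to 11.00 in WT samples. Among WT samples, all of these markers but Krt15 and Sfn were highest in WT 2, where Aloxe3 was lowest. Krt14 had log2 values of 6.78, 7.59 and 6.52 in WT samples. The part of these markers in the Aloxe3 difference was not tested.

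Downstream of the receptors, 29 G protein, cyclic AMP and phospholipase C genes were measured, of which 1 rose and 3 fell (7 and 3 with the block). The adenylyl cyclases Adcy2, Adcy4 and Adcy7, which make cyclic AMP, fell by log2 fold changes of -1.10, -0.75 and -0.78 (adjusted p = 0.0374, 0.0452 and 0.0188 by limma). The other measured cyclases did not pass. Adcy1, Adcy6 and Adcy9 had log2 fold changes of 0.56, 0.67 and 0.15, and Adcy5 and Adcy8 of -0.15 and -0.10. Adcy6 passed as higher with the block (adjusted p = 0.0363 by limma). Prkar1b, a regulatory subunit of the kinase that cyclic AMP activates, rose by 1.10 (adjusted p = 0.0169). Without KrP 3 the 4 calls of Adcy2, Adcy4, Adcy7 and Prkar1b ended, with adjusted p up to 0.229. Adcy2 and Adcy4 also lost the call without KrP 1. The same 4 calls ended without WT 3, Adcy2, Adcy4 and Adcy7 also without WT 1, Adcy7 and Prkar1b without WT 2, and Adcy4 without KrP 2 or with median centring. Of 11 cyclic AMP response genes measured, 1 rose, the phosphodiesterase Pde10a (log2 fold change 1.02, adjusted p = 0.00573, or 0.0592 without KrP 3), and 1 fell, the nuclear receptor Nr4a2 (-0.68, adjusted p = 0.0349, up to 0.198 where it lost the call, which was on leaving out any of KrP 1, KrP 3, WT 1, WT 2 or WT 3). The median of these 11 was -0.05, and the shares of all genes that rose and fell were again 1.15% and 1.03%.

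**Figure D4:**
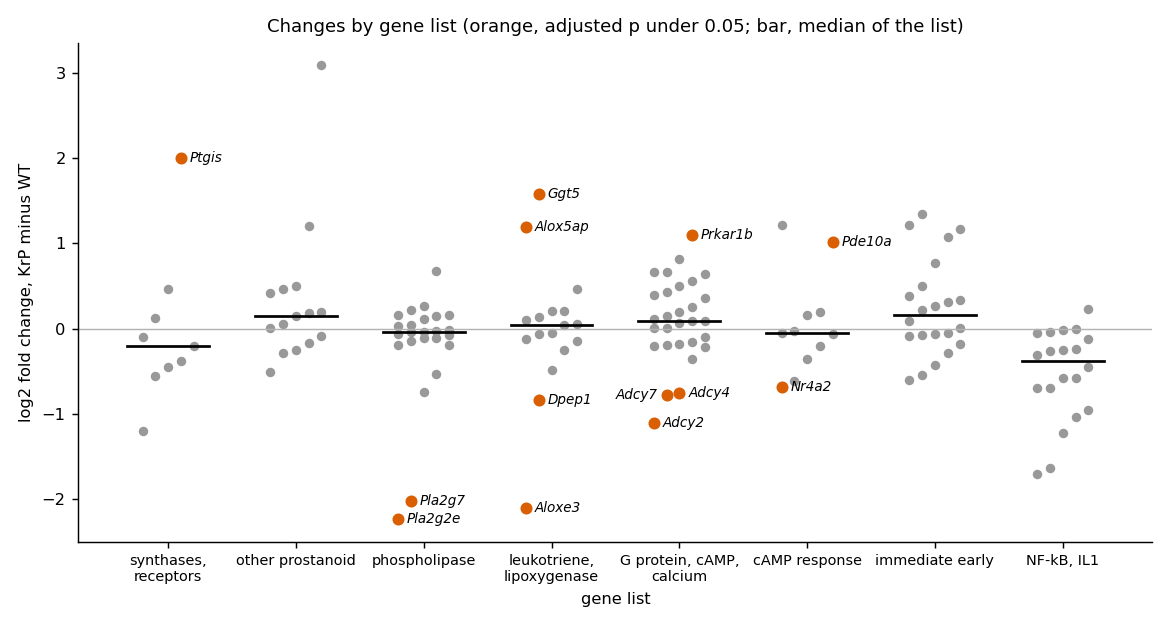
Log2 fold change, KrP minus WT, of every measured gene in the synthase and receptor list and in 7 surrounding lists, with the median as a bar and genes at an adjusted p under 0.05 in orange. The NF-kB and interleukin 1 list lies almost wholly below 0, at a median of -0.38, without a call.

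**Figure D5:**
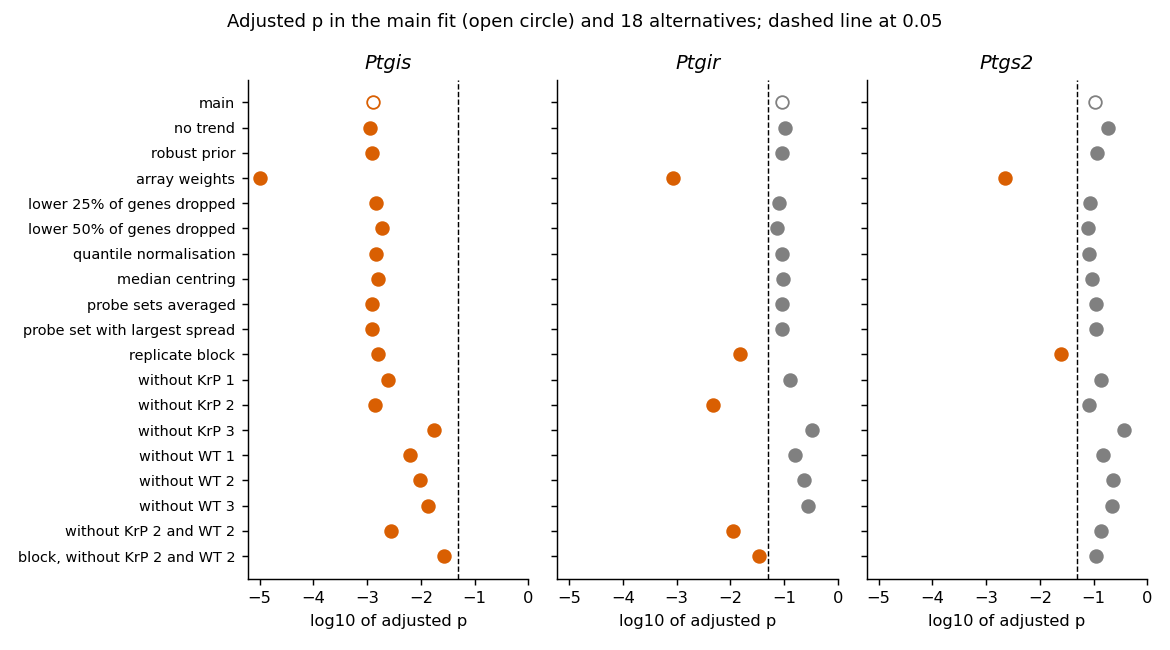
Log10 of the adjusted p for Ptgis, Ptgir and Ptgs2 in the fit without a block (open circle, labelled main) and in 18 alternatives, with a dashed line at 0.05. All 19 points of Ptgis lie left of the line, and Ptgir and Ptgs2 cross it in 5 and 2 alternatives.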

How the data were processed

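Total RNA (100 ng per sample) was labelled with biotin and measured on 1 array per sample. The authors deposited log2 values, 1 per probe set and array, and the submitters' processing notes name RMA and Partek, with neither role nor version. Neither a genome build nor a filter was found in the labels or the file header. Array medians lay between 6.34 and 6.43. Arrays carry no read depth, so their number limits the precision.

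Of 34390 probe sets, 23521 had 1 gene symbol in the platform annotation, 1814 several and 9055 none. Names of 23328 were updated by gene ID through RefSeq (GRCm38.p6). Where a gene had several probe sets, the one with the highest mean was taken. Limma 3.58.1 in R 4.3.3 compared 3 KrP with 3 WT arrays (trend on mean level, no block), with Benjamini-Hochberg adjustment over 22180 genes. A list gives counts and medians only. The smallest exact permutation p for 3 against 3 is 0.1. The steps were tested on simulated data.

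The members, lists and motifs were chosen with earlier results of these data known. Named were the members, the called genes of each list, list members that make or break down arachidonate or prostaglandins, and the 3 genes most like a called member. Genes named beyond these were chosen after their values were seen. Summed levels add values on the linear scale and return to log2.

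Deviations from group means correlated by 0.414, 0.350 and 0.120 between samples numbered 1, 2 and 3, and by 0.067 between KrP 3 and WT 2. Every same-numbered pair exceeded 0.1, so a fit with the number as a block is printed beside results it changes. The counts without mention of a block come from the fit without it. This rests on the data and not on a label, so blocked p-values may be too small. As the labels do not name separate animals per array, p-values reflect the spread among these samples alone, and part of it may be technical.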

Additional observations from a re-analysis of the deposited data

How the results depend on the processing

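Ptgis kept its call and direction in 16 alternative fits and in 2 more chosen after seeing the data, both leaving out KrP 2 and WT 2 (1 with the block), with log2 fold changes from 1.84 to 2.09. Of the 9 measured members, 4 passed with array weights (Ptger2 with Ptgis, Ptgir and Ptgs2), 3 with the replicate block, 1 or 2 when 1 sample was left out, and 2 in either added fit. Over all genes, where 483 passed in the unblocked fit, the counts were 6410 with array weights, 1851 with the block, 85 to 1116 when 1 sample was left out (KrP 3 gave the lowest count and KrP 2 the highest, with 101 for WT 3, 230 for WT 1, 256 for WT 2 and 321 for KrP 1), and 890 without KrP 2 and WT 2, or 903 with the block added. Array weights put 7.91 on KrP 3 and at most 2.66 on any other array. Of 134 genes in the surrounding lists 12 passed, against 40 with the replicate block, 4 to 26 when 1 sample was left out (4 without KrP 3, 6 without WT 3, 26 without KrP 2), and 24 and 23 in the added fits. Among 29 named genes the direction changed once, for Ptger3, whose log2 fold change ranged from -0.38 to 0.18 when 1 sample was left out. Its value was 0.18 without KrP 1. The same ranges were -0.41 to -0.02 for Ptges, 0.06 to 0.21 for Ptgds, -0.83 to -0.20 for Ptger4 and 0.008 to 0.85 for Ptgfr, with the lowest size without KrP 1 and the highest without KrP 2, or the reverse for Ptgds. Ptger2 ranged from -0.66 without KrP 2 to -0.23 without KrP 3. Ptger2 was not in the fits that dropped the lower 25% or 50% of genes. The block changed no other member's call. The causes of these changes were not tested.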
